A study of Mus musculus with 24 samples.

Results

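Ecel1 and Lad1 are the 2 genes described here, of 14455 genes that were measured at both 1 week and 5 weeks after blast-mediated traumatic brain injury (bTBI). They were chosen by their bTBI-to-sham difference, because both were higher in bTBI retinas at each time. All values of that difference are therefore a description, without a test, and support nothing on their own. Retinas of male C57BL/6J mice were sequenced in 4 groups of 6: bTBI at 1 week, sham at 1 week, bTBI at 5 weeks and sham at 5 weeks, which makes 24 retinas. The bTBI mice received a blast wave in an enclosed chamber with 1 side of the head toward it, and the sham mice were anesthetized and handled in the same way without the blast. The labels give the earlier time as 8 days. The RNA came from whole retina by the study's methods, although the labels name retinal ganglion cells (RGCs). Gnat1, the rod transducin gene, was listed at 20536 to 25175 CPM (counts scaled to a common library size) in bTBI and 18888 to 24862 CPM in sham retinas at 1 week, so the values are those of a tissue dominated by rods. In such bulk tissue, fewer cells of a type and less RNA per cell cannot be told apart.

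Ecel1 encodes endothelin converting enzyme-like 1, also called damage-induced neuronal endopeptidase, a membrane metallopeptidase of the M13 family. In mice and rats its transcript is low in most adult neurons and is switched on when their axons are injured, in RGCs after optic nerve injury among others. ATF3, JUN and STAT3, transcription factors of the axon injury response, have been shown to act on its promoter together with SP1. Lad1 encodes ladinin 1, a protein of the anchoring filaments that hold epithelia to their basement membrane, and it is best known as an autoantigen of blistering skin disease. Neurofilaments are the main intermediate filaments of RGC axons, and Müller glia, astrocytes and microglia raise sets of known genes when the retina is injured.

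Both genes lie on mouse chromosome 1 (GRCm38, GENCODE vM21). Ecel1 runs from 87147655 to 87156521 on the minus strand and Lad1 from 135818598 to 135833342 on the plus strand, 48.7 Mb apart. Their exons cover 3500 and 3400 bases, so that reads per gene are nearly on the same footing. Both genes put the bTBI retinas at 1 week in the same order, a relation that did not pass correction. For that reason the bases just upstream of the annotated start of each gene are shown, with CG pairs in capitals. They are from RefSeq (GRCm38.p6), each read 5′ to 3′ on the strand of the gene, chr1:87156522-87156606 on the minus strand for Ecel1 and chr1:135818348-135818597 on the plus strand for Lad1.
Ecel1: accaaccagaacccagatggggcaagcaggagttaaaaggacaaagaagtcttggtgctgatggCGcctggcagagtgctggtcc
Lad1: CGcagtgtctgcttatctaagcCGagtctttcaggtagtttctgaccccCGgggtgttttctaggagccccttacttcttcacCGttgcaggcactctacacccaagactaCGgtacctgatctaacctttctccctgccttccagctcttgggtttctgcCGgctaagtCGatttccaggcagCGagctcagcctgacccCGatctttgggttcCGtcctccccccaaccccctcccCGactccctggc
Windows of 300 bases around the RefSeq start held 6 CG pairs in Ecel1 and 18 in Lad1, against a median of 7 over 32817 such windows of all genes. Both strands of the windows were searched for 4 motifs that do not overlap one another. The GC box of SP1, GGGCGG, was present in 35.6% of all windows, the AP-1 motif TGANTCA in 7.81%, the CRE motif TGACGTCA in 1.79% and the STAT motif TTCNNNGAA in 8.29%. None of the 4 was found in the window of Ecel1 or in that of Lad1, which says only that these letters are not in these 300 bases.

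On the log2(CPM + 1) scale Ecel1 had the highest log2 fold change of all 14922 genes at 1 week. The study, with edgeR, gave Mmp12 a larger fold change than Ecel1 at that time. In the 6 bTBI retinas at 1 week Ecel1 was at 50.0, 7.82, 19.1, 19.3, 25.5 and 15.2 CPM (replicates 1 to 6), against 1.15, 1.23, 1.49, 1.95, 2.01 and 1.45 CPM in the sham retinas. Every bTBI retina was above every sham retina, and the lowest bTBI retina, replicate 2, was still well clear of the highest sham retina. The means were 22.8 ± 14.5 CPM in bTBI and 1.55 ± 0.357 CPM in sham (SD, n = 6 each), a ratio of 14.7 and a log2 fold change of 3.03 ± 0.29 (SE) on the log2(CPM + 1) scale, which understates changes of low genes. The spread among bTBI retinas was wide. The highest was 6.39 times the lowest, and their SD was 13.3 times the SD that counting error alone would give, with 166 to 764 reads behind the values.

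Ecel1 at 5 weeks stood at 2.22, 1.92, 2.20, 1.69, 3.03 and 2.38 CPM in bTBI retinas, against 0.656, 0.467, 1.12, 0.899, 1.11 and 0.590 CPM in sham retinas. The groups again did not overlap, and no single bTBI retina stood out. The means were 2.24 ± 0.459 CPM in bTBI and 0.808 ± 0.279 CPM in sham, a ratio of 2.77, with a log2 fold change of 0.84 ± 0.12 (SE). Only 34 to 47 reads stood behind each bTBI value and 9 to 27 behind each sham value. The SDs were 1.28 times that of counting error in bTBI and 1.41 times in sham, so that most of the spread at 5 weeks is of the size that counting gives.

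Lad1 was lower than Ecel1 at 1 week and its groups overlapped. It was at 8.05, 1.18, 4.06, 4.37, 6.81 and 3.11 CPM in bTBI retinas, against 0.679, 0.850, 0.828, 1.54, 0.440 and 0.969 CPM in sham retinas. Of the 6 bTBI retinas 5 were above every sham retina. Replicate 2, with 25 reads, was below the highest sham retina, replicate 4. The means were 4.60 ± 2.49 CPM in bTBI and 0.884 ± 0.368 CPM in sham, a ratio of 5.20 and a log2 fold change of 1.45 ± 0.27 (SE).

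Lad1 at 5 weeks stood at 3.27, 2.48, 2.59, 2.45, 2.06 and 2.32 CPM in bTBI retinas, against 1.19, 1.35, 1.71, 1.51, 1.16 and 1.54 CPM in sham retinas. Here the groups did not overlap. The means were 2.53 ± 0.407 CPM in bTBI and 1.41 ± 0.215 CPM in sham, a ratio of 1.79 and a log2 fold change of 0.55 ± 0.10 (SE). The SDs, 1.07 times that of counting error in bTBI and 0.825 times in sham, leave almost no spread beyond counting.

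**Figure D1:**
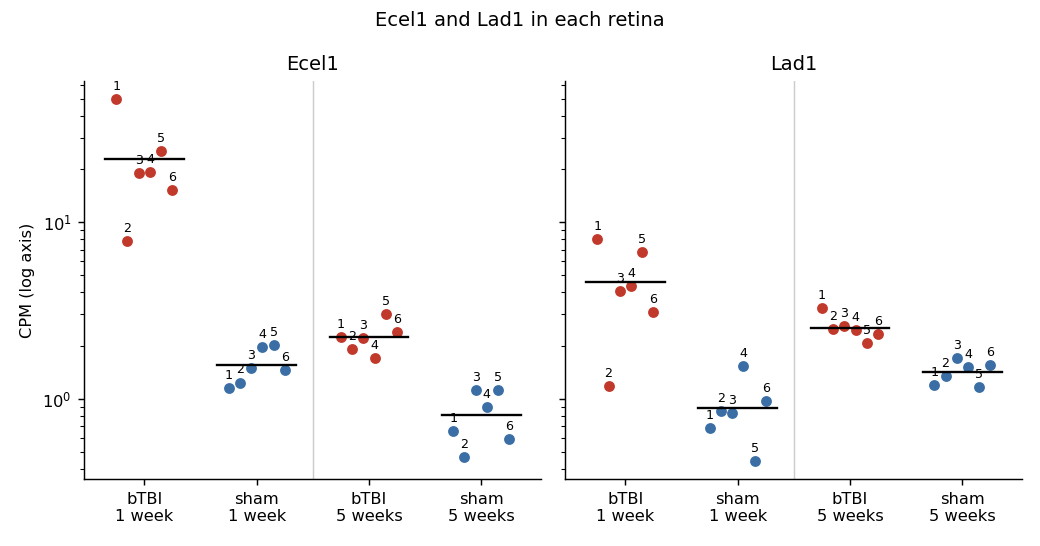
CPM of Ecel1 and Lad1 on a log axis in each retina, bTBI in red and sham in blue, with replicate numbers beside the points and the group mean as a bar. At 1 week the bTBI retinas spread over 6.39-fold for Ecel1 and 6.83-fold for Lad1, with replicate 2 lowest and replicate 1 highest in both.

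The choice of these genes followed calls at an adjusted p under 0.005, the threshold of the study. At 5 weeks 0.0126% of the 15920 genes tested were called higher in bTBI with limma, and Ecel1 and Lad1 were the 2 genes so called; 0.835% were called in either direction. At 1 week 1.27% of 14922 genes were called higher and 2.25% in either direction. Ecel1 stayed inside the choice in 12 of 12 fits that left out 1 retina at each time. Lad1 stayed inside in 2 of 12 at each time, at 1 week without bTBI replicate 2 or sham replicate 4 and at 5 weeks without bTBI replicate 5 or sham replicate 3. Its log2 fold change over those fits was 1.29 to 1.70 at 1 week and 0.49 to 0.59 at 5 weeks, so its place in the choice rests near the threshold.

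Beside Ecel1 and Lad1, the study called Pros1 and Impg2 higher at 5 weeks, with edgeR at the same threshold. Pros1 encodes the anticoagulant protein S, and Impg2 a proteoglycan of the matrix around photoreceptors. In limma neither was called at 5 weeks. Impg2 had an adjusted p of 0.014 there, and the microglial gene Ctss was nearer to the threshold at 0.010. At 1 week limma called both Pros1 and Impg2, with an adjusted p of 0.00050 for Pros1 and 0.0029 for Impg2. The call of Impg2 at 1 week held in 2 of 12 fits with 1 retina left out. Pros1 averaged 13.5 ± 2.04 CPM in bTBI and 9.85 ± 1.15 CPM in sham retinas at 5 weeks (SD, n = 6 each), a ratio of 1.37. Impg2 averaged 440 ± 15.3 CPM in bTBI and 400 ± 12.7 CPM in sham, a ratio of 1.10. Both ratios were below the 1.79 of Lad1.

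At 1 week 3 bTBI retinas stood apart by transcripts of other tissues. Cryaa, a lens crystallin, was at 2003 and 4541 CPM in bTBI replicates 5 and 6, against 18.2 to 144 CPM in the other bTBI retinas and 2.10 to 422 CPM in sham retinas. Mbp, a myelin protein of the optic nerve, reached 2531 CPM in bTBI replicate 3, while the other bTBI retinas had 35.7 to 139 CPM and the sham retinas 38.3 to 42.0 CPM. The bTBI retina highest in both Ecel1 and Lad1, replicate 1, had 24.2 CPM of Cryaa and 35.7 CPM of Mbp. Without replicates 3, 5 and 6 the bTBI mean was 25.7 ± 21.8 CPM for Ecel1 and 4.53 ± 3.44 CPM for Lad1 (SD, n = 3). The bTBI-to-sham ratio of means was then 16.6 for Ecel1 and 5.13 for Lad1. These ratios describe the contrast on which the genes were chosen and test nothing. The relation of each gene to the lens score, the mean log2(CPM + 1) of the listed lens genes, was computed within each group after the data had been seen, as 8 relations. In bTBI retinas at 1 week r was -0.09 for Ecel1 and 0.07 for Lad1 (p = 0.84 and p = 0.90, rho = -0.14 for both; exact permutation tests). In sham retinas at 1 week r was 0.80 for Ecel1 (p = 0.056, exact permutation test) with rho = 0.89 (p = 0.033), and r was 0.42 without the 2 retinas farthest from the median of the score. In bTBI retinas at 5 weeks Lad1 was lower where the lens score was higher, with r = -0.85 (p = 0.046, exact permutation test), rho = -0.89 (p = 0.033) and r = -0.93 without the 2 farthest. In sham retinas at 5 weeks Ecel1 was higher where the score was higher, with r = 0.90 (p = 0.036, exact permutation test), rho = 0.83 (p = 0.058) and r = 0.98 without the 2 farthest. The lowest adjusted p over the 8 relations was 0.15 for r and 0.13 for rho. Beyond these 8 relations the part of lens transcripts in the values of both genes was not tested.

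Lad1 is a gene of surface epithelia, so markers of these were looked up. Of 9 markers, Krt12, Krt5, Krt14, Krt15, Epcam and Trp63 were listed in neither table. The 3 listed at 1 week were Cdh1, Dsp and Perp, of which 0 were called, and their mean log2(CPM + 1) ran from 2.80 to 3.54 in bTBI and from 2.91 to 3.39 in sham. Of 10 genes of anchoring filaments and hemidesmosomes, the structures to which ladinin belongs, 6 were listed at 1 week and 9 at 5 weeks, and 0 were called at either time in limma, against 2.25% and 0.835% of all genes. At each time 1 of them had an unadjusted p under 0.05, which 17.3% of all genes had at 1 week and 10.9% at 5 weeks. Their median log2 fold change was 0.11 at 1 week and -0.05 at 5 weeks, beside a median of 0.00 over all genes at each time. Col17a1, the collagen XVII of these filaments, was at 1.40 CPM in bTBI and 1.68 CPM in sham at 1 week, and Itga6, the integrin alpha-6 subunit, at 18.5 CPM in bTBI and 11.9 CPM in sham, with an adjusted p of 0.0091 in limma, which misses the threshold.

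None of the listed relatives of Ecel1 was called, where 2.25% of all genes were at 1 week and 0.835% at 5 weeks. With so few relatives, 0 is close to that share. Of the 6 other M13 peptidases, 3 were listed at 1 week and 4 at 5 weeks. Of these 1 and 0 had an unadjusted p under 0.05 in limma, against 17.3% and 10.9% of all genes. Ece1, the endothelin converting enzyme, was at 65.0 CPM in bTBI and 64.1 CPM in sham at 1 week. Neprilysin, Mme, averaged 5.09 CPM in bTBI and 2.76 CPM in sham at 1 week, with the bTBI mean carried by replicate 6 at 13.1 CPM, and was not called (adjusted p = 0.34, limma). Mmel1, a neprilysin-like peptidase, was at 3.83 CPM in bTBI and 4.76 CPM in sham, also not called. At 5 weeks the log2 fold changes of Ece1, Ece2, Mme and Mmel1 lay between -0.20 and 0.10.

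Among the endothelins and their receptors, 1 of 5 genes was called higher at 1 week and 0 of 5 at 5 weeks in limma, against 1.27% and 0.0126% of all genes, and 4 and 1 had an unadjusted p under 0.05. Edn2, the endothelin that photoreceptors make when the retina is damaged, rose to 4.63 ± 2.26 CPM in bTBI, against 0.634 ± 0.200 CPM in sham, with a log2 fold change of 1.70 ± 0.21 (SE) and an adjusted p of 0.00029 (limma, Benjamini-Hochberg). Its bTBI values of 7.40, 1.93, 3.54, 3.62, 7.44 and 3.88 CPM were lowest in replicate 2, as those of Ecel1 and Lad1 were. At 5 weeks it averaged 6.18 CPM in bTBI and 3.78 CPM in sham, with an adjusted p of 0.025. The genes Edn1 and Edn3 of the other endothelins and Ednra and Ednrb of the receptors were not called at either time.

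The factors that act on Ecel1 were higher at 1 week in part. Of Atf3, Jun, Stat3 and Sp1, 2 were called higher at 1 week and 0 at 5 weeks, against 1.27% and 0.0126% of all genes. An unadjusted p under 0.05 in limma was found for 4 of the 4 at 1 week and 3 at 5 weeks, against 17.3% and 10.9% of all genes. Atf3 was at 23.1, 11.6, 17.5, 13.8, 17.6 and 12.5 CPM in bTBI retinas, against 5.23, 8.59, 5.96, 4.61, 7.10 and 7.89 CPM in sham retinas. The groups did not overlap, and the log2 fold change was 1.16 ± 0.16 (SE; adjusted p = 0.00047, limma). Stat3 was at 132, 84.4, 107, 106, 135 and 108 CPM in bTBI retinas, against 55.9 to 65.6 CPM in sham retinas, with a log2 fold change of 0.83 ± 0.09 (SE; adjusted p = 0.00019, limma). In both genes replicate 2 was again the lowest bTBI retina. Jun was at 35.7 CPM in bTBI and 25.1 CPM in sham (adjusted p = 0.0098) and Sp1 at 47.4 CPM in bTBI and 41.6 CPM in sham (adjusted p = 0.15), neither past the threshold in limma. At 5 weeks, when Ecel1 was still at 2.77 times its sham mean, Atf3 stood at a ratio of 1.18, Jun at 1.06, Stat3 at 1.13 and Sp1 at 1.07. Stat3 then had an adjusted p of 0.022 (limma), and the groups of Sp1 did not overlap, so a full return to sham levels is not shown.

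Of 11 listed axon injury genes, 3 were called higher at 1 week and 0 at 5 weeks in limma, against 1.27% and 0.0126% of all genes, and 8 and 2 had an unadjusted p under 0.05. Beside Atf3 these were Hrk, a pro-apoptotic BH3 protein of injured neurons, at 2.71 CPM in bTBI and 0.784 CPM in sham, and Tnfrsf12a, a receptor linked to axon regrowth, at 12.3 CPM in bTBI and 6.35 CPM in sham. Sox11, a factor of injured RGCs, was at 2.50 CPM in bTBI and 1.12 CPM in sham, with an adjusted p of 0.020, and Gap43 at 38.1 CPM in bTBI and 39.3 CPM in sham. Sprr1a and Gal were listed in neither table.

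The neurofilament chains went the other way at both times. All 3 chains were called lower at 1 week and at 5 weeks, where 0.985% and 0.823% of all genes were called lower. Nefh, the heavy chain, fell to 79.3, 144, 98.0, 96.0, 79.4 and 83.9 CPM in bTBI retinas at 1 week, against 166 to 213 CPM in sham retinas. Its log2 fold change was -0.95 ± 0.12 (SE; adjusted p = 0.00028, limma), and replicate 2 was the bTBI retina nearest to sham. Nefl and Nefm, the light and medium chains, had log2 fold changes of -0.81 and -0.72 at 1 week, and the 3 chains had -0.76 for Nefl, -0.84 for Nefm and -0.69 for Nefh at 5 weeks. Of 6 RGC markers 5 were called lower at 1 week and 6 at 5 weeks. At 1 week the call of Rbpms, an RNA-binding protein of RGCs (adjusted p = 0.0048, limma), held in 1 of 12 fits with 1 retina left out, the one without bTBI replicate 2, and in 4 of 9 other settings, and it was lost with the replicate block. That of Thy1, a surface protein of RGCs, was lost when bTBI replicates 5 and 6 were both left out. The synuclein of RGCs, Sncg, a synuclein of RGCs, was at 80.9 CPM in bTBI and 138 CPM in sham at 1 week.

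Glial genes were called higher at 1 week and not at 5 weeks, and the difference between the times was not tested. Of 9 listed macroglial genes 6 were called higher at 1 week and 0 at 5 weeks. Of the microglial genes 9 of 13 were called higher at 1 week and 0 of 12 at 5 weeks. Over all genes 1.27% were called higher at 1 week and 0.0126% at 5 weeks, so 0 at 5 weeks is close to that share. The macroglial list and its score hold Edn2, which is counted among the endothelins too, and without it 5 of 8 were called at 1 week. They also hold Stat3, which is counted among the factors that act on Ecel1. At 5 weeks 4 of the macroglial and 4 of the microglial genes had an unadjusted p under 0.05 in limma, against 10.9% of all genes. Gfap, the filament of astrocytes and reactive Müller glia, was at 122, 61.2, 737, 162, 104 and 57.7 CPM in bTBI retinas at 1 week, against 15.4 to 27.1 CPM in sham retinas. Its highest value was in replicate 3, the retina rich in Mbp, and its lowest in replicate 6. Its call (adjusted p = 0.0027, limma) held in 4 of 12 fits with 1 retina left out, and that of Vim, another such filament, in 2 of 12. Without replicate 3, 6 macroglial and 10 microglial genes were called higher at 1 week. C1qa, a complement subunit that microglia make, was at 38.7 CPM in bTBI and 10.04 CPM in sham at 1 week and also highest in replicate 3.

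**Figure D2:**
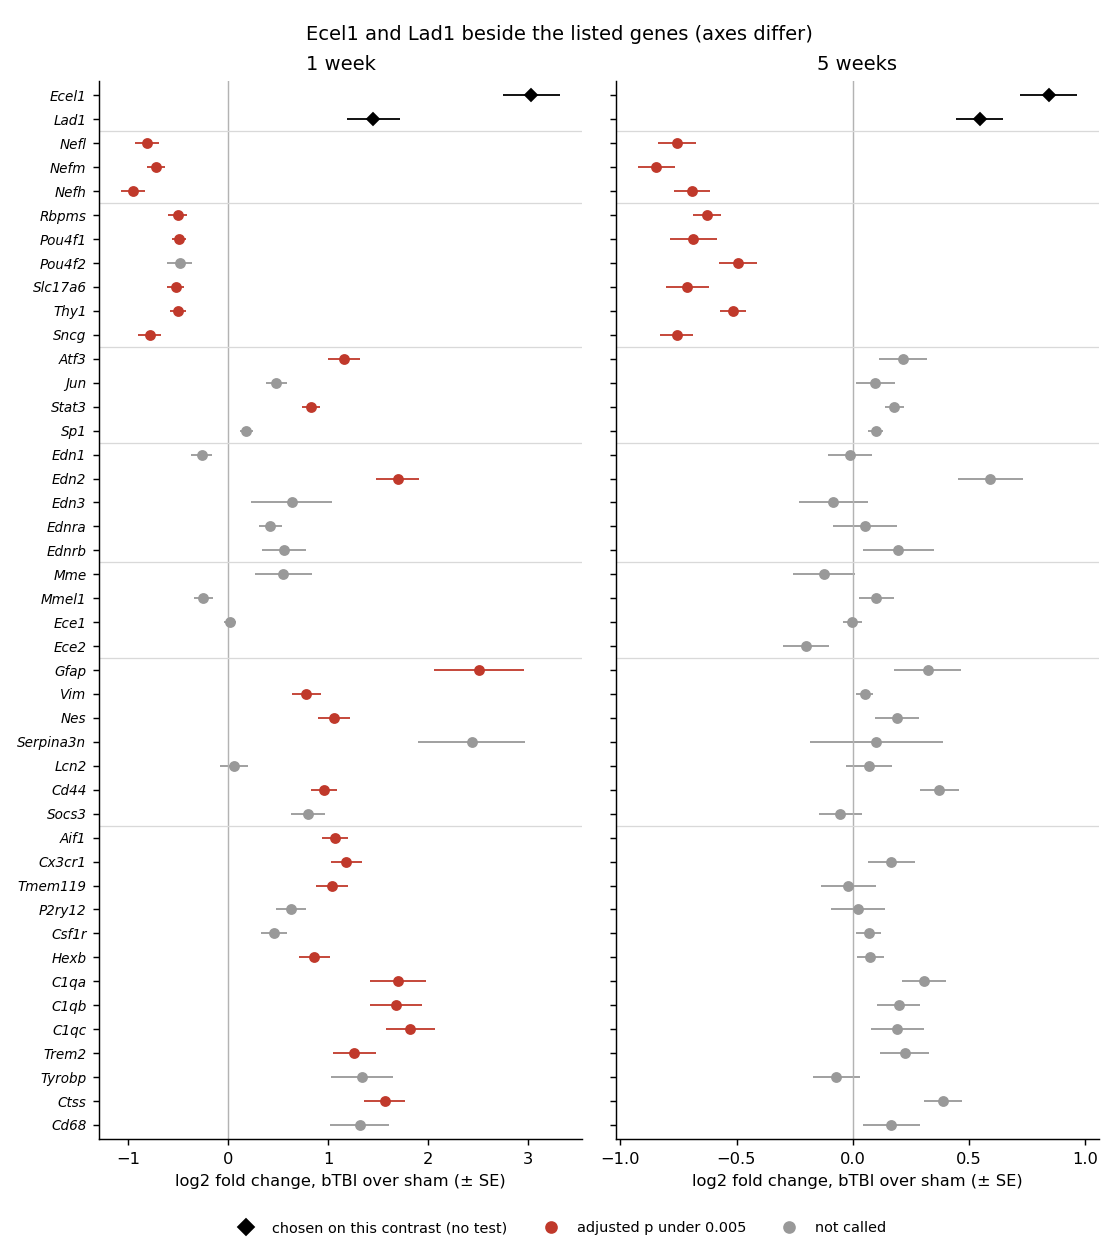
Log2 fold change of bTBI over sham (± SE) for Ecel1 and Lad1 (black diamonds, chosen on this contrast) and the listed neurofilament, RGC, regulator, endothelin, M13 peptidase, macroglial and microglial genes, at 1 week on the left and 5 weeks on the right, on different scales. At 5 weeks the 3 neurofilament and 6 RGC genes were called lower, while 0 of the glial genes was called. Over all genes 0.823% were called lower and 0.0126% higher at 5 weeks.

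The choice of Ecel1 and Lad1 used differences between groups and not the spread within 1 group, so their relation among retinas of the same group could be tested. Among the 6 bTBI retinas at 1 week both genes put the retinas in the same order, with replicate 2 lowest, then 6, 3, 4 and 5, and replicate 1 highest. Pearson's r of their log2(CPM + 1) was 0.96 (p = 0.0042) and Spearman's rho was 1.00 (p = 0.0028, the smallest that the 720 pairings of 6 retinas can give; two-sided exact permutation tests). Over the 28 relations computed the adjusted p was 0.12 for r and 0.078 for rho, so the relation does not pass a threshold of 0.05 after correction. For rho, 0.078 is the lowest adjusted p that 1 relation alone can reach over 28. The corrected test of rho could therefore not pass, and nothing is concluded from it. Without the 2 retinas farthest from the median of Ecel1, r was 0.99. Leaving out 1 retina at a time, r stayed between 0.92 and 1.00 and the order stayed the same. Depth was 15097829, 20758146, 17273169, 17663122, 22188647 and 25158638 reads in replicates 1 to 6, an order that neither gene followed.

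No such order was seen in the other groups. The r of Ecel1 with Lad1 was 0.15 in sham retinas at 1 week (rho = -0.03), -0.38 in bTBI retinas at 5 weeks (rho = -0.43) and 0.14 in sham retinas at 5 weeks (rho = 0.14), with unadjusted p of 0.81, 0.44 and 0.76 in exact permutation tests. In these groups the SDs were 0.825 to 1.72 times those of counting error, and a relation between the genes was hardly detectable at this depth. The difference between the groups was not tested.

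**Figure D3:**
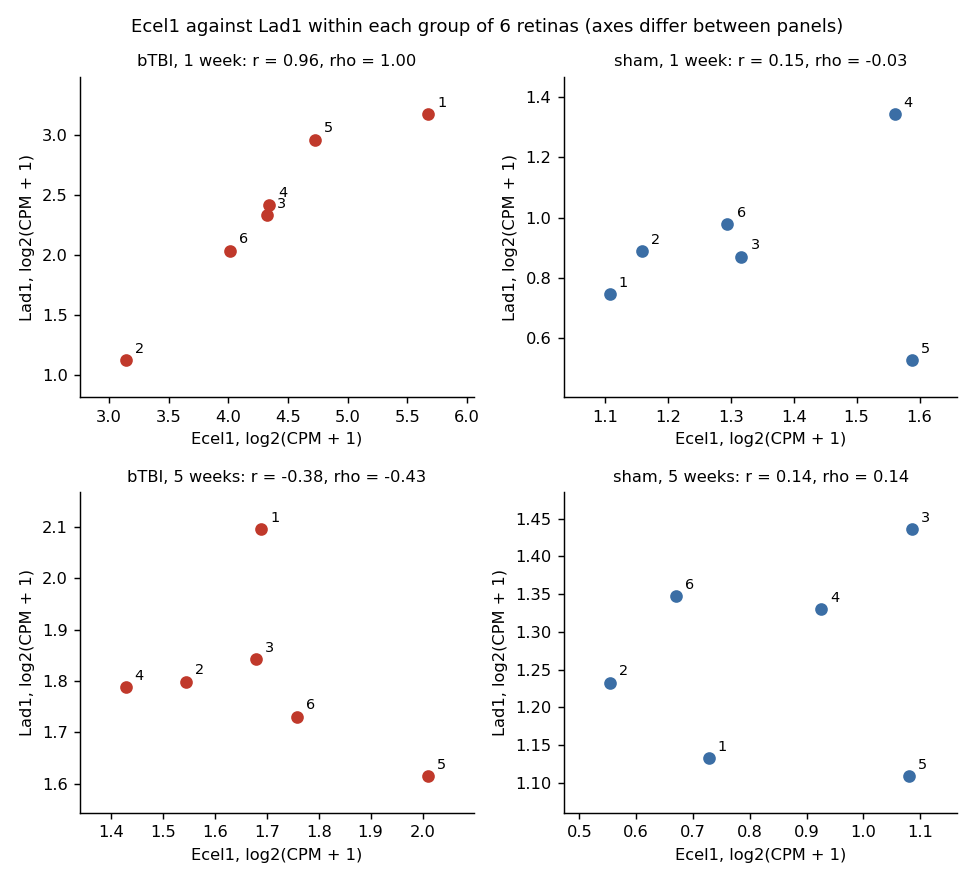
Lad1 against Ecel1, both as log2(CPM + 1), in the 6 retinas of each group, with replicate numbers beside the points and axes that differ between panels. In bTBI retinas at 1 week the points rise in 1 line (r = 0.96), and in the other 3 groups r lies between -0.38 and 0.15.

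The ratio of the genes within a retina does not depend on how a library was scaled. Per kilobase of exon, Ecel1 was 3.64 to 6.45 times as high as Lad1 in bTBI retinas at 1 week and 1.23 to 4.43 times in sham retinas at 1 week. In the later table the ratio was 0.660 to 1.43 in bTBI retinas and 0.336 to 0.935 in sham retinas. Ecel1 was thus above Lad1 in all 12 retinas at 1 week and below it in all 6 sham retinas at 5 weeks. The RNA kit also changed, RNeasy Plus Mini for the earlier retinas and RNeasy Mini for the later ones, and its part in this order cannot be told apart from that of time or age.

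Set side by side per kilobase of exon, Ecel1 averaged 6.52 CPM in bTBI and 0.442 CPM in sham at 1 week, and 0.640 CPM in bTBI and 0.231 CPM in sham at 5 weeks. Lad1 averaged 1.35 CPM in bTBI and 0.260 CPM in sham at 1 week, and 0.744 CPM in bTBI and 0.415 CPM in sham at 5 weeks. The 2 tables were normalized separately, so levels at 1 week and at 5 weeks were not tested against each other. In CPM, the bTBI retinas at 5 weeks overlapped the sham retinas at 1 week for Ecel1, with 1.69 to 3.03 CPM against 1.15 to 2.01 CPM, and did not for Lad1, with 2.06 to 3.27 CPM against 0.440 to 1.54 CPM.

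The relations of each gene to the neurofilament, macroglial and microglial scores, the mean log2(CPM + 1) of each list in a retina, were the remaining 24 of the 28 tests. In bTBI retinas at 1 week, Lad1 was lower where the neurofilament score was higher, with r = -0.86 (p = 0.036, adjusted p = 0.34) and rho = -0.71 (p = 0.14, adjusted p = 0.68; exact permutation tests). For Ecel1 r was -0.76 (p = 0.12, adjusted p = 0.48) and rho -0.71. Without the 2 retinas farthest from the median of the score r was -0.27 for Lad1 and -0.41 for Ecel1, and without replicate 2 alone it was -0.49 for Lad1 and -0.35 for Ecel1, so the relation rests on that retina in large part. Both glial scores were lowest in replicate 2 as well. In the same retinas r with the macroglial score was 0.62 for Ecel1 (p = 0.16) and 0.70 for Lad1 (p = 0.12), with rho = 0.60 for both, and r with the microglial score was 0.55 for Ecel1 (p = 0.22) and 0.57 for Lad1 (p = 0.20), with rho = 0.66 for both (exact permutation tests, adjusted p from 0.48 to 0.68). Of the macroglial genes in the score, r with Ecel1 in these retinas ran from 0.17 (Serpina3n) to 0.91 (Edn2). With Lad1 it ran from 0.29 (Gfap) to 0.96 (Stat3). A macroglial score without Edn2 and Stat3 was not computed. Whether glial cells account for the order of the retinas was not tested. In bTBI retinas at 5 weeks Lad1 followed the microglial score with r = 0.89 (p = 0.021, adjusted p = 0.29) and rho = 0.83 (p = 0.058), and r was 0.94 without the 2 farthest retinas. Leaving out 1 retina at a time gave r of 0.61 (without replicate 1) to 0.99, and the SD of Lad1 there was 1.07 times that of counting error. In sham retinas at 5 weeks the sign was the other one, with r = -0.70 (p = 0.11, exact permutation test), rho = -0.89 (p = 0.033, adjusted p = 0.47) and r = -0.98 without the 2 farthest. Of the 28 relations 3 had an unadjusted p under 0.05 for r, and 0 had an adjusted p under 0.05.

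**Figure D4:**
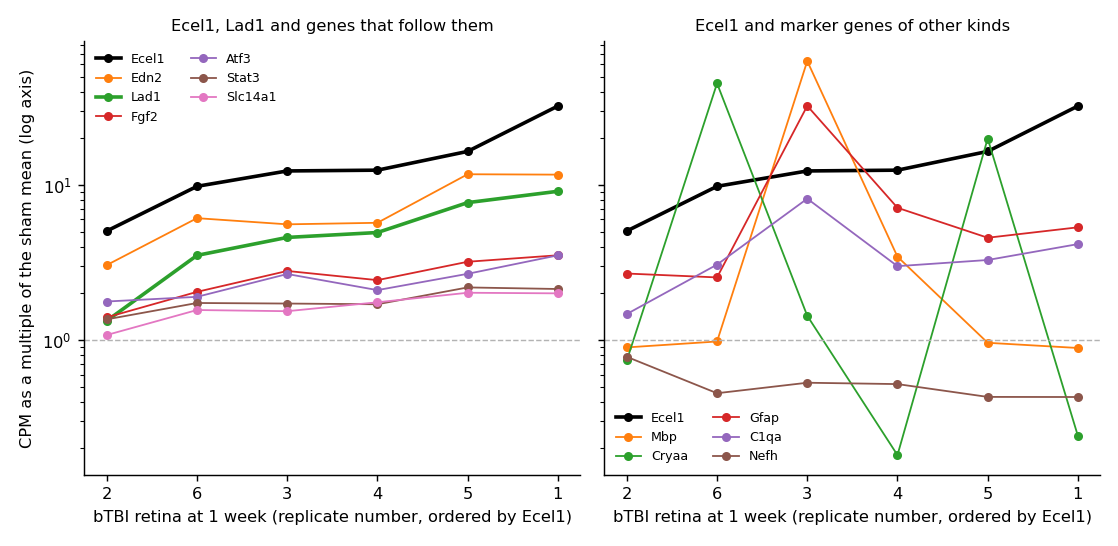
CPM in each bTBI retina at 1 week as a multiple of the sham mean, on a log axis, with the retinas ordered by Ecel1. Lad1, Edn2, Fgf2, Atf3, Stat3 and Slc14a1 (left) and C1qa (right, at 1.47 times the sham mean) are lowest in replicate 2 like Ecel1, while Cryaa peaks in replicates 5 and 6 and Mbp, Gfap and C1qa in replicate 3 (right).

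The genes most like each of the pair were looked for among 14392 others with a mean of at least 1 CPM in both tables. Over the 24 retinas, with each value centred on its group mean, the genes nearest to Ecel1 were Fgf2 (r = 0.82), Lad1 (0.80), Slc14a1 (0.79), Plcd1 (0.75) and Stat3 (0.74). Nearest to Lad1 were Slc14a1 (0.90), Fgf2 (0.86), Stat3 (0.83), 1700017B05Rik (0.81) and Ecel1 (0.80). Lad1 was thus 2nd of 14392 genes for Ecel1, and Ecel1 5th for Lad1, and Fgf2, Slc14a1 and Stat3 stood in both lists. Within the bTBI retinas at 1 week alone, Lad1 ranked 15 for Ecel1 and Ecel1 ranked 17 for Lad1. These values describe likeness only. The values share libraries, and some rest on the wide spread of the bTBI retinas at 1 week. Without those 6 retinas, a check chosen after seeing the data, the r of Ecel1 was 0.00 with Lad1, 0.22 with Fgf2, 0.04 with Stat3 and 0.52 with Plcd1, and that of Lad1 was 0.60 with Slc14a1 and 0.74 with 1700017B05Rik.

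Fgf2, a growth factor that rises in injured retina, was at 60.8, 24.2, 48.1, 42.0, 55.2 and 35.3 CPM in bTBI retinas at 1 week and averaged 44.3 ± 13.4 CPM in bTBI and 17.2 ± 1.90 CPM in sham, with an adjusted p of 0.00038 (limma). Slc14a1, a urea transporter, averaged 30.0 ± 6.36 CPM in bTBI and 18.1 ± 1.37 CPM in sham at 1 week (adjusted p = 0.0026), a call that held in 3 of 12 fits with 1 retina left out. At 5 weeks neither was called, with ratios of 1.19 for Fgf2 and 1.11 for Slc14a1.

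By the other measure, the lower of the 2 r over the 12 retinas of each table, Plpp3 (0.84), Impg2 (0.80), Lad1 (0.79), Fndc3b (0.77) and Ctss (0.75) were most like Ecel1. Cyp4v3 (0.83), Trim56 (0.83), Ctss (0.83), Irf9 (0.82) and Kremen1 (0.80) were most like Lad1. Here both groups enter each r, so a gene that differs between bTBI and sham at both times ranks high whatever it does within a group. Ctss, the microglial cathepsin S, stood in both lists, at 74.7 CPM in bTBI and 23.5 CPM in sham at 1 week (adjusted p = 0.00033) and 14.8 CPM in bTBI and 11.0 CPM in sham at 5 weeks (adjusted p = 0.010, limma). Irf9, a factor of the interferon response, was called higher at 1 week, at 34.5 CPM in bTBI and 12.4 CPM in sham, and not at 5 weeks.

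None of the listed neighbours on chromosome 1 was called, where 2.25% of all genes were at 1 week and 0.835% at 5 weeks. With so few neighbours, 0 is close to that share. Of the 2 protein-coding genes on each side of Ecel1, only Prss56, a serine protease gene 26792 bases away, was listed, at 4.55 CPM in bTBI and 5.44 CPM in sham at 1 week (adjusted p = 0.63, limma). Beside Lad1, Phlda3 and Pkp1 were listed at both times and Tnnt2 at 5 weeks alone. For Phlda3, a p53 target, the log2 fold change at 1 week was 0.30 (adjusted p = 0.13, limma), and at 5 weeks it was 0.03. For Pkp1, the desmosomal plakophilin 1, these values were -0.09 and -0.08. No annotated gene among those looked up overlapped Ecel1 or Lad1.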

How the data were processed

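RNA of 24 retinas was sequenced as stranded polyA libraries. The authors mapped reads with STAR to mm10, counted them per gene and deposited 1 table per time, in which the signal of a gene is its count divided by a library size and scaled like CPM, with low genes already removed. Every value of a retina is a multiple of the same smallest unit (tolerance 0.01), taken as 1 read. The depth found in this way was 14301989 to 25158638 reads. It is an estimate, with no deposited total to set beside it.

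Gene IDs were matched to symbols by Ensembl ID, 99.9% of 16387. Values were compared as log2(CPM + 1) between bTBI and sham within each table with limma 3.58.1 in R 4.3.3 (prior variance following the mean, two-sided, Benjamini-Hochberg over all genes, adjusted p under 0.005), which was tested on simulated data. Relations within a group of 6 used exact permutation tests (Python 3.11.15), adjusted over 28, and those with the lens score over 8. Ecel1, Lad1 and all gene lists were chosen with earlier results of these data known. The text names all listed genes of the neurofilament, M13 peptidase, regulator and endothelin lists, and of other lists up to 3 called genes at each time and fixed markers. It further names the neighbours, the 2 further genes that the study called higher at 5 weeks and the 5 most alike. Gnat1, Itga6, Col17a1, Sox11 and Gap43 were added after their values were seen, and some listed genes are not reported here. Nothing states that the 6 mice of a group came from separate litters or runs, so p-values measure the spread between these retinas.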

Additional observations from a re-analysis of the deposited data

How the results depend on the processing

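With a pseudocount of 0.1 the log2 fold changes were 2.11 for Lad1 at 1 week, and 1.40 for Ecel1 and 0.80 for Lad1 at 5 weeks, since a smaller pseudocount shrinks low genes less. At a threshold of 0.05, 907 genes were called at 1 week and 326 at 5 weeks, with 3 macroglial and 1 microglial gene higher at 5 weeks. Without the trend of the prior 56 genes were called at 5 weeks, and with a robust prior 1 microglial gene was higher at 5 weeks. Without both lens-rich bTBI retinas 112 genes were called at 1 week, 5 of them microglial. Single omissions gave 189 (without sham replicate 2) to 486 (without bTBI replicate 2) called genes at 1 week and 88 (without sham replicate 2) to 163 at 5 weeks. At 1 week 4 to 6 macroglial and 6 to 11 microglial genes were then higher, and at 5 weeks 0 of either. All 3 neurofilament chains stayed called lower at both times, and 0 relations passed 0.05, in every setting run. With 1 retina left out fewer pairings remain, and 1 relation of that group alone could not pass. Nothing is concluded from the relations in those settings. Over the single omissions the log2 fold change of Ecel1 was 2.77 to 3.28 at 1 week and 0.78 to 0.90 at 5 weeks. The replicate numbers name different mice. Same-numbered deviations correlated between -0.25 and 0.54 at 1 week and between -0.11 and 0.15 at 5 weeks. These values were not set beside those of differently numbered retinas. Whether equal numbers mark a shared litter or run was therefore not tested. With the number as a replicate block 293 genes were called at 1 week and 134 at 5 weeks. Of 1947 fits of another named gene 79 lost and 17 gained a call, and 0 reversed. The causes of these shifts were not tested. edgeR on reads inferred from the steps was not run, since those reads could not be checked. At 9 to 58 reads per retina, the values of Ecel1 and Lad1 at 5 weeks are limited by counting.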

Other observations

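Of 12 markers of cones, bipolar cells, amacrine cells and Müller glia, 0 were called in limma at either time, against 2.25% and 0.835% of all genes. An unadjusted p under 0.05 was found for 4 at 1 week, all 3 Müller glial genes and 1 cone gene, and for 2 at 5 weeks, against 17.3% and 10.9% of all genes. The Müller glial genes did not move in 1 direction. The Müller glial enzyme Glul averaged 3329 CPM in bTBI and 3894 CPM in sham retinas at 1 week (adjusted p = 0.027, limma), with no overlap of the groups. At 5 weeks Glul averaged 2417 CPM in bTBI and 2359 CPM in sham. Of the other Müller glial genes at 1 week, Rlbp1 was lower too (log2 fold change -0.20) and Slc1a3 was higher (0.20). Cone arrestin, Arr3, averaged 61.8 CPM in bTBI and 83.2 CPM in sham at 1 week, and 539 CPM in bTBI and 538 CPM in sham at 5 weeks, which shows how far levels of a gene can lie apart between the separately normalized tables.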
